A study of Mus musculus with 5 samples.

Results

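Peaks that carried the name of 1 of 10 genes of telomere maintenance were examined in 3 lists of chromatin immunoprecipitation sequencing (ChIP-seq) peaks. The genes were Tert and Dkc1 of the telomerase enzyme, Terf1, Terf2, Terf2ip, Tinf2, Acd, Pot1a and Pot1b of the shelterin complex, and the helicase gene Rtel1. They were chosen by symbol and not by a measured value, though earlier results of these data were known. They named 31 of the 89451 peaks in the 3 lists, and 5 of the 10 genes named at least 1 peak. The list of hnRNPA1 peaks from Zhx1-KO cells held 15 of its 51545 peaks under these names, the list of hnRNPA1 peaks from 46C-Ctrl cells 8 of 14662, and the list of ZHX1 peaks from 46C-Ctrl cells 8 of 23244.

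The study asked how hnRNPA1, a protein that binds RNA and DNA, and the zinc finger and homeobox protein ZHX1 are placed on the genome when mouse embryonic stem cells differentiate towards the heart. All cells were of the 46C mouse embryonic stem cell line, differentiated in culture to the stage that the labels call CP, which stands for cardiac progenitor. Zhx1-KO cells had lost Zhx1 through CRISPR/Cas9 editing with guides at both ends of the gene, with the number of clones not stated, and were immunoprecipitated for hnRNPA1, and 46C-Ctrl cells, which kept the gene, were immunoprecipitated for hnRNPA1 and for ZHX1. Each of the 3 lists came from 1 library, so no value below has a replicate error and no difference between lists was tested. No read count or score accompanied the peaks, so the depth is unknown. The longer Zhx1-KO list therefore cannot be told apart from a deeper library or a looser threshold. The lists hold positions only, and the labelled cell type could not be checked against marker genes.

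Telomeres, the ends of linear chromosomes, consist in vertebrates of many copies of the 6-base repeat TTAGGG. Shelterin covers this repeat: TRF1 and TRF2, the products of Terf1 and Terf2, bind its double-stranded part, POT1 proteins bind the single-stranded overhang, and TIN2, TPP1 (the product of Acd) and RAP1 (the product of Terf2ip) join them. Telomerase lengthens the repeat with its reverse transcriptase, Tert, while dyskerin, the product of Dkc1, stabilises its RNA. The hnRNPA1 protein is known to bind single-stranded telomeric repeats and the RNA transcribed from telomeres, which is the reason for looking at these genes.

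Most peaks under these names belonged to 2 of the 10 genes. Terf1 and Terf2ip together had 24 of the 31 peaks and were the only members present in all 3 lists. In the Zhx1-KO hnRNPA1 list Terf1 had 7 peaks, Terf2ip 7 and Rtel1 1. In the 46C-Ctrl hnRNPA1 list Terf1 had 4, Terf2ip 2, and Tert and Pot1b 1 each. In the 46C-Ctrl ZHX1 list Terf2ip had 3, Tert and Rtel1 2 each, and Terf1 1. Dkc1, Terf2, Tinf2, Acd and Pot1a named no peak in any list, under the current symbol or under an older synonym. The median number of peaks per gene was 0 over the members in each list, beside 1, 0 and 0 over all protein-coding genes in the Zhx1-KO hnRNPA1, 46C-Ctrl hnRNPA1 and ZHX1 lists. The 2 longer lists were also reduced to their 14662 widest peaks, the length of the 46C-Ctrl hnRNPA1 list. Then 4 Zhx1-KO hnRNPA1 and 3 ZHX1 peaks carried a member's name. The 46C-Ctrl hnRNPA1 list kept all its peaks and so its 8, and only the counts of the longer lists could fall.

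**Figure D1:**
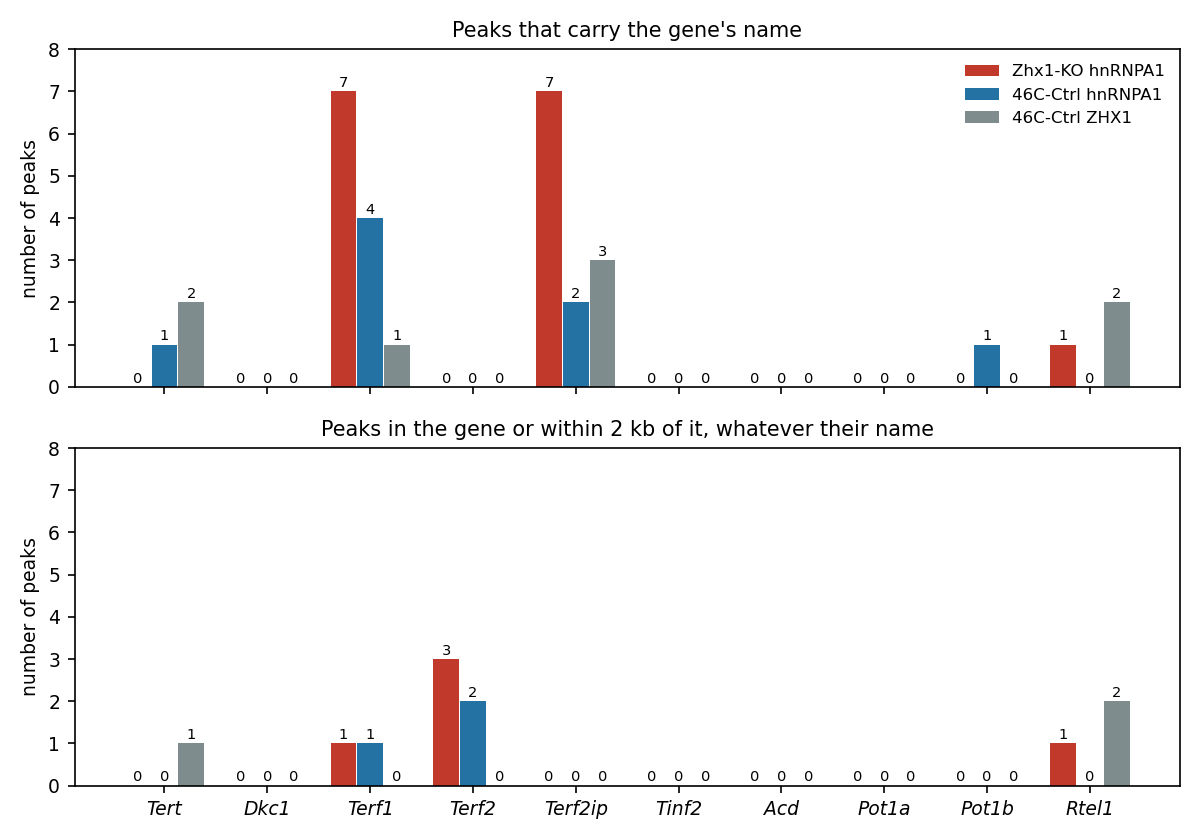
Number of peaks for each of the 10 genes in the Zhx1-KO hnRNPA1, 46C-Ctrl hnRNPA1 and 46C-Ctrl ZHX1 lists (1 library each). The upper panel counts peaks by the gene name given to them, where Terf1 and Terf2ip reach 7 each in Zhx1-KO cells, and the lower panel counts peaks in the gene or within 2 kb of it, where both fall to 1 or 0 and Terf2, which names no peak, has 3 in Zhx1-KO and 2 in 46C-Ctrl hnRNPA1.

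These shares were read against all 21924 protein-coding genes of the annotation. In the Zhx1-KO hnRNPA1 list 3 of 10 members were named, where 57.7% of all genes were. In the 46C-Ctrl hnRNPA1 list 4 of 10 were named, against 31.2% of all genes, and in the 46C-Ctrl ZHX1 list 4 of 10, against 40.5%. Both 46C-Ctrl counts thus lay within 1 gene of the background share, and the Zhx1-KO count lay below it. Across all protein-coding genes 30.3% were named in no list and 17.9% in all 3, beside 5 and 2 of the 10 members.

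A gene name on a peak did not place the peak in that gene. For 91% of the Zhx1-KO hnRNPA1 peaks, 90.8% of the 46C-Ctrl hnRNPA1 peaks and 91.2% of the ZHX1 peaks, the name was that of the gene with the nearest transcription start site (TSS) among curated RefSeq transcripts, at whatever distance. Of the 31 peaks under a member's name, 6 lay inside that gene, 9 inside another protein-coding gene and 16 in no annotated gene. The median distance from the peak centre to the nearest curated RefSeq TSS of the naming gene was 80.2 kb for the 15 Zhx1-KO peaks, 123 kb for the 8 46C-Ctrl hnRNPA1 peaks and 44.6 kb for the 8 ZHX1 peaks. Over all peaks of the same lists it was 41.3, 36.1 and 37.4 kb in that order of lists. More than 20 kb separated 14 of 15, 5 of 8 and 5 of 8 member peaks from the TSS, beside 67.1%, 64.2% and 64.3% of all peaks.

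**Figure D2:**
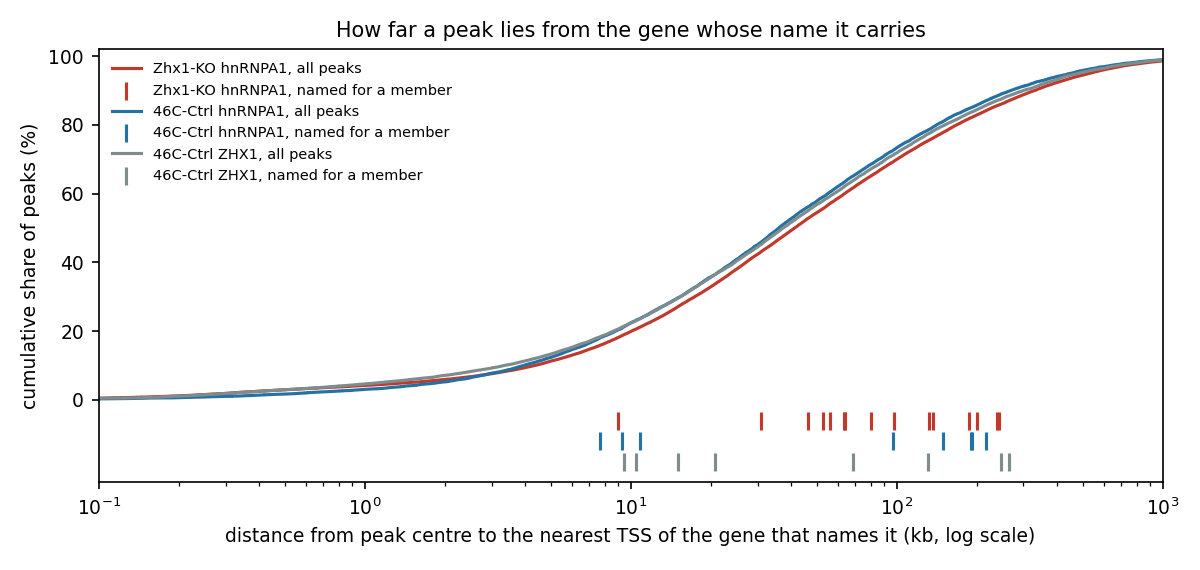
Distance from the centre of a peak to the nearest curated RefSeq TSS of the gene that names it (kb, log axis), with the cumulative share of all peaks of each list as lines and the member peaks as ticks below. The ticks run between 7.7 and 265 kb, and 14 of the 15 Zhx1-KO ticks lie beyond 20 kb.

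Counted by position instead, with any peak in the gene or within 2 kb of it, the Zhx1-KO hnRNPA1 list had peaks at 3 of 10 members (Terf1, Terf2 and Rtel1), where 47.1% of all protein-coding genes had one. The 46C-Ctrl hnRNPA1 list had peaks at 2 members (Terf1 and Terf2), against 23.0% of all genes, and the ZHX1 list at 2 (Tert and Rtel1), against 31.7%. Taking both rules, 6 members had a peak and 4, Dkc1, Tinf2, Acd and Pot1a, had none. All 11 peaks inside members lay in sequence that occurs once in the assembly.

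Within 2 kb of an annotated TSS of any transcript, 2 members had a Zhx1-KO hnRNPA1 peak (Terf2 and Rtel1), where 21.0% of all genes did. No member had such a 46C-Ctrl hnRNPA1 peak, against 6.77% of all genes, and 2 had a ZHX1 peak (Tert and Rtel1), against 12.1%. For Tert and Rtel1 the TSS in question was that of a shorter transcript that starts inside the gene. Only at Terf2 did a peak lie within 2 kb of the start of the gene itself.

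**Figure D3:**
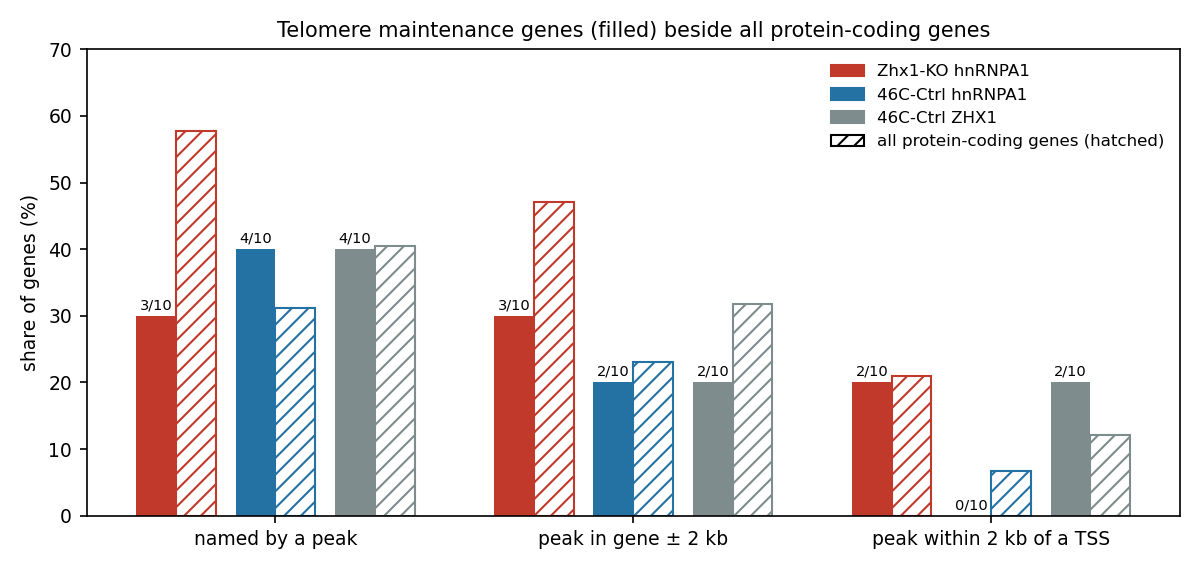
Share of genes (%) with a peak by 3 rules, with the 10 telomere maintenance genes as filled bars (counts above them) and all 21924 protein-coding genes as hatched bars, for the Zhx1-KO hnRNPA1, 46C-Ctrl hnRNPA1 and 46C-Ctrl ZHX1 lists. Members named by a Zhx1-KO hnRNPA1 peak (3 of 10) stand below the 57.7% of all genes, and no filled bar exceeds 4 of 10.

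Among the telomerase genes, Tert spans chr13:73626911-73649843 on the plus strand of GRCm38, the mouse genome build used throughout. It had no Zhx1-KO hnRNPA1 peak under its name, and the nearest one lay 34.6 kb downstream of the gene start under the name Slc6a18. The only 46C-Ctrl hnRNPA1 peak named Tert lay at chr13:73619099-73619321, 7.7 kb upstream, in an intron of the neighbouring gene Clptm1l. A ZHX1 peak at chr13:73617372-73617599, in coding sequence of Clptm1l, lay 1499 bases from that hnRNPA1 peak without overlapping it. The second ZHX1 peak, at chr13:73637237-73637485, lay inside Tert, where it covered 128 coding bases of exon 6 of 16 and the start of the next intron. Tert was thus the gene at which hnRNPA1 and ZHX1 peaks of 46C-Ctrl cells came closest among the members. In all, 63 other protein-coding genes had the same 0, 1 and 2 peaks in the 3 lists, of which Nsg1, Usp22 and Cgrrf1 were nearest to Tert in length.

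Dkc1, at chrX:75095854-75109777, was the member farthest from any peak. The nearest Zhx1-KO hnRNPA1 peak lay 217 kb from its start, the nearest 46C-Ctrl hnRNPA1 peak 229 kb, and the nearest ZHX1 peak 104 kb. No peak of any list fell within 100 kb of its start. Of all protein-coding genes, 4.68% had no Zhx1-KO hnRNPA1 peak within that distance, 27.2% no 46C-Ctrl hnRNPA1 peak and 16.3% no ZHX1 peak.

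Of the shelterin genes that bind double-stranded repeats, Terf1 spans chr1:15805646-15844052 on the plus strand. A single Zhx1-KO hnRNPA1 peak lay in the gene, at chr1:15836361-15836688 in intron 8 of a 10-exon transcript, 30.9 kb from the gene start. A single 46C-Ctrl hnRNPA1 peak also lay in it, at chr1:15814771-15815076 in intron 3, 9.28 kb from the start. The gene thus had 1 intronic hnRNPA1 peak in each cell line, at different introns, and no ZHX1 peak.

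The other 10 Terf1-named peaks lay upstream, between 56.3 and 247 kb from the gene start, and 7 of them were inside introns of Kcnb2, a potassium channel gene. The Zhx1-KO hnRNPA1 peaks stood 242, 200, 98.1, 64, 63.2 and 56.3 kb upstream, the 46C-Ctrl hnRNPA1 peaks 217, 150 and 97 kb upstream, and the ZHX1 peak 247 kb upstream. At about 98 kb the Zhx1-KO peak chr1:15707366-15707709 and the 46C-Ctrl peak chr1:15708492-15708726 were 782 bases apart, the closest pair of peaks from both cell lines under a member's name. The Zhx1-KO peaks at 64 and 63.2 kb lay 409 bases from each other in repeat-masked sequence whose 32-base words occur a median of 3588 and 1882 times in the assembly. No other protein-coding gene had the same 7, 4 and 1 peaks in the 3 lists. As many peaks or more were named for 6.22% of all genes in the Zhx1-KO list and for 2.14% in the 46C-Ctrl hnRNPA1 list. By position Terf1 did not stand out. Within 100 kb of its start it had 5 Zhx1-KO and 2 46C-Ctrl hnRNPA1 peaks, and 51.2% and 44.2% of all genes had as many or more.

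**Figure D4:**
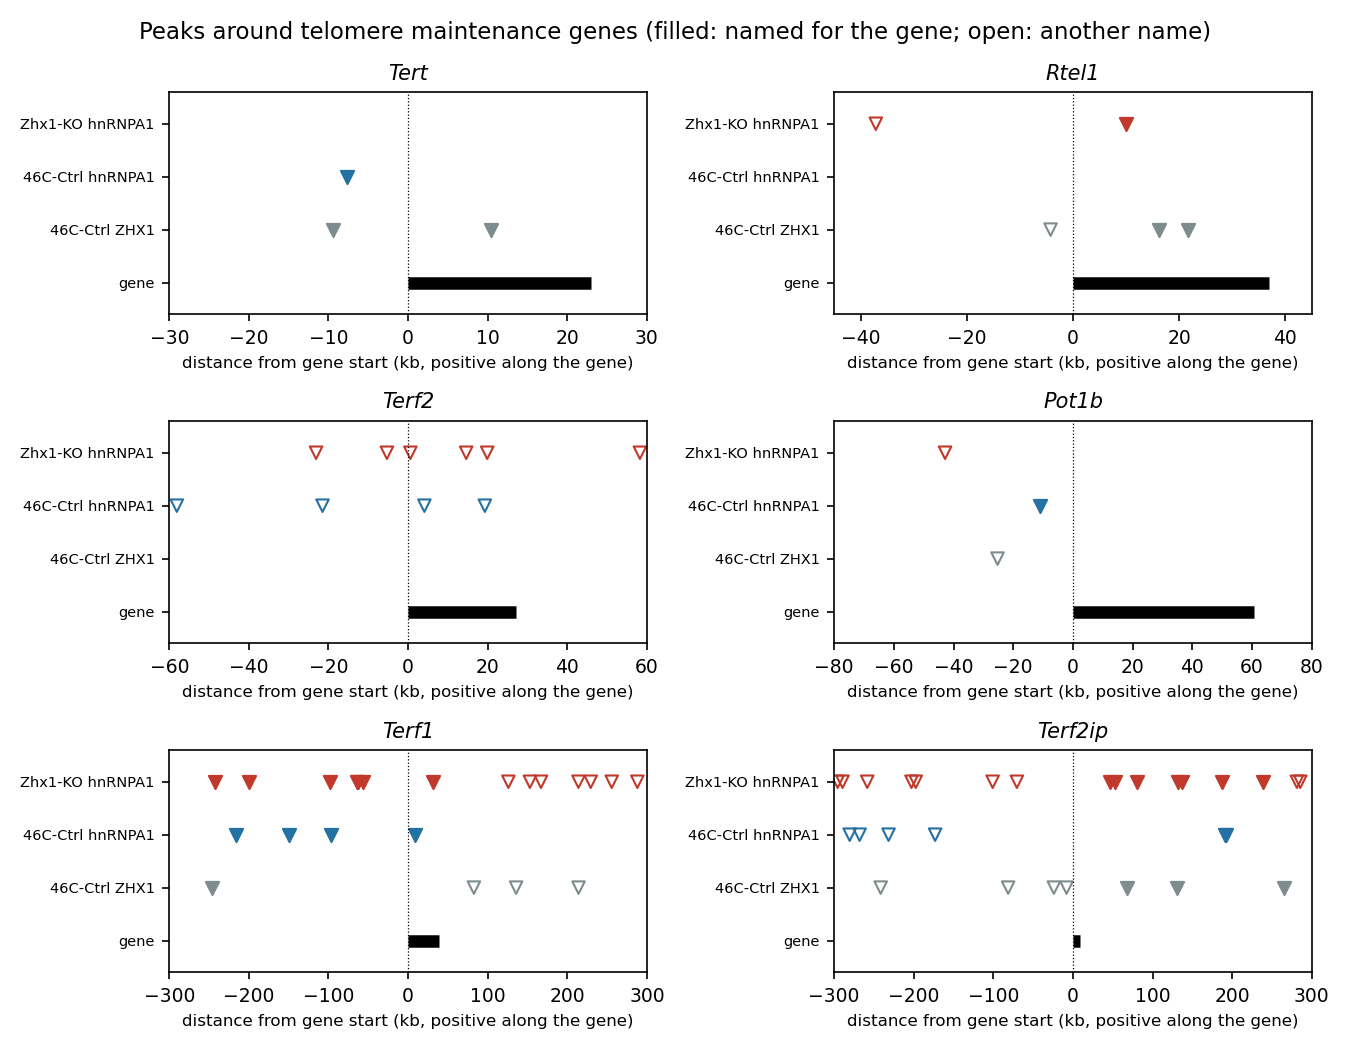
Peaks around 6 telomere maintenance genes by distance of the peak centre from the gene start (kb, positive along the gene), with 1 row per list and a black bar for the gene body. Filled triangles carry the gene's name and open triangles another name: the filled ones of Terf2ip all lie downstream of the gene, those of Terf1 mostly upstream, and the gene body of Terf2 holds open hnRNPA1 triangles only.

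Terf2, at chr8:107069400-107096547 on the minus strand, named no peak, yet it held more hnRNPA1 peaks in its body than any other member. This gene was singled out after its values were seen. The 3 Zhx1-KO hnRNPA1 peaks lay at chr8:107076459-107076865 in exon 7 of 10, at chr8:107081834-107082057 in intron 4, and at chr8:107095858-107096081 over exon 2. The 2 46C-Ctrl hnRNPA1 peaks lay at chr8:107077142-107077380 in intron 6 and at chr8:107092298-107092607 in intron 3. They carried the names of Tmed6, a neighbouring gene, and of Mir7075, a microRNA gene inside Terf2.

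At Terf2 the exon 7 peak of Zhx1-KO cells and the intron 6 peak of 46C-Ctrl cells were 276 bases apart, closer than any pair from different lists under a member's name. No ZHX1 peak lay within 77.3 kb of the gene start. At least 3 Zhx1-KO hnRNPA1 peaks in the gene or within 2 kb were found for 12.8% of all genes and at least 2 46C-Ctrl hnRNPA1 peaks for 6.56%. Within 100 kb of its start Terf2 had 7 Zhx1-KO and 6 46C-Ctrl hnRNPA1 peaks, and 26.4% and 2.11% of all genes had as many. A body peak of hnRNPA1 in both cell lines was found for 16.5% of all genes, and among the members for Terf1 and Terf2. The exon 2 peak is printed on the minus strand, the sense strand of Terf2, because it was the peak nearest to the start of any member, 0.466 kb from it at its edge. Capitals mark its 96 coding bases.
Terf2 exon 2, Zhx1-KO hnRNPA1, chr8:107095858-107096081: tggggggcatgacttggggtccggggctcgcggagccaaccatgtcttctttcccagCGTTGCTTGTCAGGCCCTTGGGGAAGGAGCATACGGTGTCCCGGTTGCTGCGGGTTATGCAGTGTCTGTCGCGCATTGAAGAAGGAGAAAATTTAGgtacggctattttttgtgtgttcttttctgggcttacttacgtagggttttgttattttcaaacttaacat

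Terf2ip, at chr8:112011398-112020528 on the plus strand, encodes RAP1, the partner of TRF2. All 12 of its peaks lay downstream of the gene in sequence with no annotated gene. The 7 Zhx1-KO hnRNPA1 peaks stood 46.4, 53, 80.2, 132, 137, 188 and 239 kb from the gene start, the 2 46C-Ctrl hnRNPA1 peaks 191 and 192 kb, and the 3 ZHX1 peaks 68.5, 131 and 265 kb. The peaks of the 3 lists were interleaved along this stretch and none overlapped. The closest pair from different lists was the Zhx1-KO hnRNPA1 peak chr8:112143510-112143744 and the ZHX1 peak chr8:112142234-112142625, with 884 bases between them, while the 46C-Ctrl hnRNPA1 peaks were 541 bases from each other. For all 12 peaks the nearest curated RefSeq TSS was that of Gm9564, 21 kb beyond the start of Terf2ip, so here the name did not follow the nearest start. The ZHX1 peak nearest to the Terf2ip start, 7.73 kb upstream, carried the name Kars. The counts of 7, 2 and 3 were shared by 18 other protein-coding genes, of which Klf10, Vgll2 and Hpf1 were nearest in length.

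The genes for the proteins that bridge shelterin, Tinf2 and Acd, had no peak in or within 2 kb of the gene. From the start of Tinf2, at chr14:55674689-55681820, the nearest Zhx1-KO hnRNPA1 peak was 19.4 kb away, the nearest 46C-Ctrl hnRNPA1 peak 77.2 kb and the nearest ZHX1 peak 52.6 kb. From the start of Acd, at chr8:105695860-105701102, they were 13, 8.26 and 11.5 kb away in the same order of lists, and all 3 carried the name of Carmil2. Acd thus had a peak of every list in its neighbourhood without being named by one.

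The genes of the proteins that bind the single-stranded overhang, Pot1a and Pot1b, had 1 peak between them. Mice carry both genes, whereas humans have a single POT1 gene. Pot1b, at chr17:55651951-55712628 on the minus strand, named the 46C-Ctrl hnRNPA1 peak chr17:55723325-55723695, which lay 10.9 kb upstream. That peak was entirely repeat-masked, and its 32-base words occur a median of 49 times in the assembly. The nearest Zhx1-KO hnRNPA1 and ZHX1 peaks, 42.7 and 25.1 kb from the Pot1b start, were both named Adgre4. Pot1a, at chr6:25743737-25809246, was 77, 179 and 172 kb from the nearest Zhx1-KO hnRNPA1, 46C-Ctrl hnRNPA1 and ZHX1 peak. It is the longest member, at 65.5 kb, and 77.8% of genes of similar length (1 of 10 equal groups by length) were named in the Zhx1-KO list. The counts of Pot1b, 0, 1 and 0, were shared by 679 other genes, including Acot11, Srl and Myo15, which are nearest to it in length.

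Rtel1, at chr2:181319739-181356616 on the plus strand, encodes a helicase that unwinds telomeric loops and quadruplexes. All 3 of its peaks lay inside the gene. The Zhx1-KO hnRNPA1 peak lay at chr2:181329655-181329878 in intron 7 of a 34-exon transcript. The 46C-Ctrl hnRNPA1 list had no peak within 105 kb of the gene start. The ZHX1 peaks lay at chr2:181335770-181335997 and chr2:181341347-181341678, over the start of coding exon 10 and over coding exon 14. The Zhx1-KO hnRNPA1 peak and the nearer ZHX1 peak were 5891 bases apart. Rtel1 was the only member with 2 ZHX1 peaks in its body, and 11% of all genes had as many. Its counts of 1, 0 and 2 were shared by 247 other genes, of which Tom1, Tmprss5 and Zscan18 were nearest in length. The exon 10 peak is shown on the plus strand because it lay 0.053 kb from an internal TSS of Rtel1, the shortest such distance at any member. Capitals mark its 105 coding bases.
Rtel1 exon 10, 46C-Ctrl ZHX1, chr2:181335770-181335997: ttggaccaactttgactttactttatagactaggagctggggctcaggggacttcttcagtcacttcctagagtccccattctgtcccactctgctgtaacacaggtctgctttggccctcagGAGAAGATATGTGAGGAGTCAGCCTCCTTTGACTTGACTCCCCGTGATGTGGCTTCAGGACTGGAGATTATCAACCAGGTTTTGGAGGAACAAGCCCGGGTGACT

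No peak under a member's name overlapped a peak of another list, and the same held for the 5 peaks inside Terf2. Over all peaks, 1.26% of the Zhx1-KO hnRNPA1 peaks overlapped a 46C-Ctrl hnRNPA1 peak and 1.99% a ZHX1 peak by at least 1 base. Of the 46C-Ctrl hnRNPA1 peaks 4.41% overlapped a Zhx1-KO hnRNPA1 peak and 4.12% a ZHX1 peak, and of the ZHX1 peaks 4.42% and 2.6% overlapped the Zhx1-KO and 46C-Ctrl hnRNPA1 lists. Shares of this size could not be told from 0 with 31 peaks. Even Terf1 and Terf2ip, named in all 3 lists, were therefore named by different positions in each.

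The number of peaks within 100 kb of the gene start gave the same picture without the names. Over the 10 members it was 0 to 7 with a median of 3.5 in the Zhx1-KO hnRNPA1 list, 0 to 6 with a median of 1 in the 46C-Ctrl hnRNPA1 list, and 0 to 5 with a median of 2 in the ZHX1 list. The medians over all protein-coding genes were 5, 1 and 2. Tert had 4, 2 and 3 peaks in that order of lists, Terf1 5, 2 and 1, and Rtel1 6, 0 and 5. Terf2ip had 4, 0 and 4, so the 46C-Ctrl hnRNPA1 peaks under its name all lay farther out. Tinf2 had 3, 1 and 1, Acd 2, 2 and 3, Pot1b 2, 1 and 2, and Pot1a 2, 0 and 0.

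Member peaks were searched for the telomere repeat itself. The word TTAGGG was read on both strands and occurred in 4 of 15 Zhx1-KO hnRNPA1 peaks, 2 of 8 46C-Ctrl hnRNPA1 peaks and 2 of 8 ZHX1 peaks. It occurred in 11%, 11.6% and 11.2% of all peaks in those lists and in 10.2% of 9768967 windows of 271 bases along the assembly. Over the 3 lists that was 8 of 31 member peaks, or 25.8%, and 11.1% of all peaks, and the 8 belonged to Terf1 (3), Terf2ip (4) and Rtel1 (1). Among peaks of the same list within 10% of the width of each of these 8, the share ran from 8.23% to 17.6%. The difference rests on few peaks and was not tested. Of the 8, the Terf1 peak 63.2 kb upstream lay in the multi-copy sequence described above. The 8 peaks held 9 words, since the 46C-Ctrl hnRNPA1 peak 191 kb downstream of the Terf2ip start held 2 that were not adjacent, and no member peak held 2 in tandem. The shorter word TAGGG, which lies within TTAGGG and is the core bound by hnRNPA1 in RNA as UAGGG, was in 11 of the 31 member peaks, or 35.5%, and in 35% of all peaks. A match of either word describes the sequence only. The 2 words inside members and 3 of those near Terf2ip are printed with up to 12 bases on either side, TTAGGG in capitals, to show the flanking sequence.
Terf1 intron 3, 46C-Ctrl hnRNPA1, chr1:15814967-15814996, minus strand: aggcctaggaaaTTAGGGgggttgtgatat
Rtel1 exon 14 peak, 46C-Ctrl ZHX1, chr2:181341351-181341380, plus strand: agtctatagtccTTAGGGgagatttcccta
Terf2ip downstream, Zhx1-KO hnRNPA1, chr8:112143510-112143528, plus strand: gTTAGGGttttactgctgt
Terf2ip downstream, 46C-Ctrl hnRNPA1, chr8:112202111-112202140, plus strand: ctttgtggaggtTTAGGGggcaaggccttg
Terf2ip downstream, 46C-Ctrl ZHX1, chr8:112276833-112276862, plus strand: gttaaattcttcTTAGGGacagtggcaaaa

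In width and repeat content the member peaks were ordinary or less repetitive. Their median width was 246 bp in the Zhx1-KO hnRNPA1 list, 242 bp in the 46C-Ctrl hnRNPA1 list and 228 bp in the ZHX1 list, beside 271, 257 and 259 bp over all peaks. The smallest width in the 3 lists was 224, 223 and 228 bp, so the ZHX1 member median sat at the minimum. The printed Terf2 exon 2 and Rtel1 exon 10 peaks also had the smallest width of their lists. Sequence with a median copy number of at least 2 made up 3 of the 31 member peaks, the pair upstream of Terf1 and the one upstream of Pot1b, and 28.6% of all peaks. A G-quadruplex motif (4 runs of at least 3 G, or of C on the other strand, with 1 to 7 bases between runs) was found in 1 of 31, the ZHX1 peak 131 kb from Terf2ip, and in 5.07% of all peaks.

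A wider list of 54 telomere-related genes was counted the same way. The Zhx1-KO hnRNPA1 list named 30 of them (55.6%), the 46C-Ctrl hnRNPA1 list 11 (20.4%) and the ZHX1 list 18 (33.3%), at or below the shares of all genes given above. In all, 7 of the 54 were named in every list and 18 in none. Peaks of different lists overlapped at none of the 54, which had 77 Zhx1-KO hnRNPA1, 19 46C-Ctrl hnRNPA1 and 32 ZHX1 peaks. Over all peaks, the share that overlapped another list ran between 1.26% and 4.42%, and the difference was not tested. By role, the helicases and replication factors were named most often, 7, 3 and 6 of 9 genes in that order of lists, and the CST complex, which binds single-stranded DNA at telomere ends, least, with 0 of 3 in each. Telomerase assembly factors counted 5, 2 and 2 of 8, end protection and repair genes 6, 3 and 2 of 13, telomeric chromatin genes 4, 1 and 1 of 7, RNA turnover genes 5, 2 and 4 of 8, and other telomere-binding proteins 3, 0 and 3 of 6. Over all protein-coding genes 57.7%, 31.2% and 40.5% were named in the same order of lists. The roles hold 3 to 13 genes each. Their order was not tested, and gene length was not taken into account.

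Of the wider list, Hnrnpd and Naf1 had 14 and 13 peaks over the 3 lists, beside 12 each for Terf1 and Terf2ip. Hnrnpd, which encodes another hnRNP protein that binds telomeric repeats, had 9, 2 and 3 peaks in the Zhx1-KO hnRNPA1, 46C-Ctrl hnRNPA1 and ZHX1 lists. Naf1, an assembly factor of telomerase and other box H/ACA RNA complexes, had 9, 1 and 3. Tnks, a tankyrase gene, had 4, 4 and 3, and Blm, a RecQ helicase, 3, 3 and 4. Exo1, an exonuclease, had 5, 1 and 1, Prkdc, the DNA-dependent protein kinase, 4, 0 and 3, and Tnks2 5, 0 and 0. H3f3a, a gene of the histone variant that is deposited at telomeres, had 2, 1 and 2, and Parn, which trims the telomerase RNA, 3, 0 and 1. Terc, the telomerase RNA gene itself, had 1, 0 and 1. It was added to those chosen by number of peaks after its values were seen.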

How the data were processed

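Peak lists were available for 3 ChIP-seq libraries, and the 2 input libraries were not analysed here. The authors removed adapters and reads under 50 bases with cutadapt 1.18, mapped the reads to GRCm38 with Bowtie2 2.3.5.1 and removed duplicates and reads that did not map uniquely. The submitters' processing notes also list BWA 0.7.12-r1039 and deepTools 3.3.0. The peak caller, its threshold and the use of the inputs are not named in the labels or methods. The deposited files give chromosome, start, end, a gene name and a plus sign for each peak, with no count, score, signal or fold enrichment, so nothing could be weighted by strength and no depth or counting interval can be given.

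Starts were raised by 1 to count from 1. Positions were compared with GENCODE M21 genes and transcripts on GRCm38, and sequences were read from the RefSeq GRCm38.p6 assembly. For position, a gene was taken with 2 kb on each side, and a promoter as 2 kb on each side of any annotated TSS. Copy number is the median count of the 32-base words of a peak in the assembly on both strands, and 2 or more was called multi-copy. Unique mapping by the authors can place a read in such sequence only where it differs between copies. Sequence words were searched on both strands. Interval functions were tested on simulated data. Python 3.11.15, numpy 2.4.6 and pandas 2.3.3 were used.

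The members and the wider list were chosen with earlier results of these data known. Members are all described. From the wider list at most 3 genes of a role with the most peaks were named, and likeness was judged by equal numbers of peaks in the 3 lists, naming up to 3 genes nearest in length. An older symbol of Terb2 that is now another gene's symbol was not used. With 1 library per group no test was run. Alternatives were other rules for linking a peak to a gene, other promoter windows, other overlap limits, limits on width and a limit to peaks with a copy number below 2.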

Additional observations from a re-analysis of the deposited data

How the results depend on the processing

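Of 60 comparisons with another setting, 39 stayed within the limit set for a change and 21 did not. Counted in the gene or within 2 kb instead of by name, 2 members had peaks in each of the 46C-Ctrl hnRNPA1 and ZHX1 lists, and the peaks numbered 5 in Zhx1-KO hnRNPA1, 3 in 46C-Ctrl hnRNPA1 and 3 in ZHX1. By the nearest TSS of any transcript, members in the ZHX1 list numbered 2, with 5, 3 and 3 peaks in the 3 lists in that order. Among peaks at least as wide as their list's median, 2 members were named in the ZHX1 list, with 5, 3 and 2 peaks, and 0 members had a promoter peak in the Zhx1-KO and in the ZHX1 list. Among the 14662 widest peaks of each list, 4 Zhx1-KO hnRNPA1 and 3 ZHX1 peaks were named for members, beside 15 and 8 over all peaks. The 46C-Ctrl hnRNPA1 list has just that length, so its counts, such as the 8 named peaks, could not change. In this setting 0 Zhx1-KO and 1 ZHX1 members had promoter peaks. A promoter of 1 kb left 1 member in the Zhx1-KO list, and one of 5 kb gave 1 in the 46C-Ctrl hnRNPA1 list. The number of overlapping pairs at members was 0 in every alternative run. Only the setting that asked for peak centres within 1 kb could have raised it. The other settings can only drop pairs, so their 0 was fixed by the main count of 0. The 46C-Ctrl hnRNPA1 promoter count of 0 was likewise fixed in every setting but the 5 kb window. All these counts of 0 are among the 39 that stayed. The first 2 settings differ in the rule that links a peak to a gene, and the width settings keep fewer peaks. Keeping only peaks with a copy number below 2 moved no count beyond the limit. No paired analysis was possible because each group has 1 library. Depth cannot be judged from these lists.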

Other observations

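The telomere repeat in tandem was looked at in all peaks, since no peak at a telomere maintenance gene held it. Of 51545 Zhx1-KO hnRNPA1 peaks 119 held at least 2 adjacent copies of TTAGGG on either strand (0.231%, 95% Wilson interval 0.193% to 0.276%). It was 7 of 14662 46C-Ctrl hnRNPA1 peaks (0.0477%, interval 0.0231% to 0.0985%) and 13 of 23244 ZHX1 peaks (0.0559%, interval 0.0327% to 0.0957%). The intervals cover counting error within 1 library only and do not compare the conditions. Of 1729 such tandem sites on the assembled chromosomes, 331 (19.1%) lay under Zhx1-KO hnRNPA1 peaks, 8 (0.463%) under 46C-Ctrl hnRNPA1 peaks and 43 (2.49%) under ZHX1 peaks. In each list these sites outnumbered the peaks with the tandem repeat, as 1 peak can cover several sites. The share of the assembly that each list covers was not computed. Within 5 Mb of either end of an assembled chromosome lay 33 of the 119 Zhx1-KO hnRNPA1, 3 of the 7 46C-Ctrl hnRNPA1 and 8 of the 13 ZHX1 peaks with the tandem repeat, beside 6.7%, 7.6% and 7.24% of all peaks of those lists. The start and the end of a chromosome were not counted apart. How many of the 1729 tandem sites lie within 5 Mb of an end, with or without a peak, was not computed. Among peaks with a copy number below 2 the counts were 83 of 35385, 6 of 11078 and 6 of 17383 in the same order of lists. As shares these were 0.235% (interval 0.189% to 0.291%), 0.0542% (0.0248% to 0.118%) and 0.0345% (0.0158% to 0.0753%). The Zhx1-KO peaks with the tandem repeat had a median width of 377 bp. Among peaks of up to 300 bp the shares were 0.073% (interval 0.0486% to 0.109%), 0.0402% (0.0156% to 0.103%) and 0.0658% (0.0357% to 0.121%). Whether these intervals overlap between lists was not read as a result, because peaks of 1 library are not replicates. No difference between the lists was tested.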
